A study of Mus musculus with 2 samples.

Results

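YAP, TAZ, the TEAD factors and the VGLL cofactors form the transcriptional end of the Hippo pathway, and their transcripts were compared between mouse embryonic fibroblasts (MEFs) labelled LATS2-/- (KO) and LATS2+/+ (WT). The members were chosen by name: Yap1 (which encodes YAP), Wwtr1 (which encodes TAZ), Tead1, Tead2, Tead3, Tead4, Vgll2, Vgll3 and Vgll4. These are 9 of the 27579 gene names on the array, represented by 12 of its 41174 probes. Tead2, Vgll4, Yap1 and Tead4 had mean log2 ratios of labelled KO over labelled WT between 0.53 and 0.70. Wwtr1, Tead1 and Tead3 lay within 0.08 of 0. Vgll3 was the 1 member with a negative mean, at -0.24. Vgll2 was not well above background in either RNA.

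In the Hippo pathway, the LATS kinases phosphorylate YAP and TAZ, which retains these coactivators in the cytoplasm or sends them to degradation. Neither coactivator binds DNA itself. In the nucleus they bind TEAD proteins, which recognise the MCAT element and switch on growth and matrix genes in fibroblasts, and VGLL proteins bind TEADs through a short motif of their own and can displace YAP and TAZ. The arrays measured transcripts, so neither phosphorylation nor the place of the proteins in the cell was measured.

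Both RNAs came from embryonic fibroblasts of C57BL/6J mice, of genotype LATS2+/+ or LATS2-/- in the titles and written LAT2+/+ or LAT2-/- in the genotype field, and neither culture was treated. A dye, red Cy5 or green Cy3, was built into each total RNA sample, and the pair was put on 1 Agilent array of mouse gene probes. Cy5 marked the RNA labelled KO on the first array and the RNA labelled WT on its dye swap. The labels name no number of embryos, no separate cultures and no separate RNA preparations, so the 2 arrays were counted as 1 replicate and no test of the genotypes was possible. Age and passage of the cells were not given in the sources used here. Errors below are SDs between the arrays and measure hybridisation and dye error only. In bulk RNA of this kind, fewer cells that express a gene and less transcript per cell cannot be told apart.

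Most probes of the targeted gene went against its label. Of 4 Lats2 probes, all on the minus strand of chromosome 14, 3 had mean log2 ratios above 0 (0.56, 0.56 and 0.63). These lay between 56644080 and 56645305. The remaining probe, at 56676512 to 56676571, went with the label at -0.35 (-0.18 and -0.51 on the arrays). Every direction below therefore rests on the labels, and each RNA is named by its label. Lats1 was at -0.03. As a check of the cell type, 11 of 12 measured fibroblast markers were well above background in both RNAs. So were 6 of 6 smooth muscle, 6 of 10 neural and glial, and 5 of 10 macrophage and blood cell markers. The counts were 3 of 8 for cartilage and bone, 3 of 9 for epithelial, 5 of 16 for skeletal muscle lineage and 0 of 8 for endothelial markers. The check thus does not set fibroblasts apart from smooth muscle cells. On each array 0 spots were saturated, and no member probe carried an outlier flag.

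Among the members with a promoter sequence, those that differed most, in either direction, are printed first. TEADs, themselves members, bind the MCAT element, whose letters are CATTCC. RefSeq sequences (GRCm38.p6) were matched by symbol for 7 of the 9 members, among them Yap1, Tead2, Vgll3 and Vgll4. Tead1 and Tead4 had no entry, so the promoter of Tead4, with a mean ratio of 0.53, is not printed. Each run below holds the 250 bases before the start site, 5′ to 3′ on the strand of the gene, and capitals mark the MCAT letters or their reverse complement. The runs lie at chr9:8004597-8004846 (minus strand) for Yap1, chr7:45215542-45215791 (plus strand) for Tead2, chr16:65814939-65815188 (plus strand) for Vgll3 and chr6:114969204-114969453 (minus strand) for Vgll4.
Yap1: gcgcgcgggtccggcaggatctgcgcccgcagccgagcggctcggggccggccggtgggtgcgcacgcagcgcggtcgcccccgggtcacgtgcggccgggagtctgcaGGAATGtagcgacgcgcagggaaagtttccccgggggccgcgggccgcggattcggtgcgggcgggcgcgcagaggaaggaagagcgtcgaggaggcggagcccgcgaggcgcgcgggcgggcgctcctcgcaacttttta
Tead2: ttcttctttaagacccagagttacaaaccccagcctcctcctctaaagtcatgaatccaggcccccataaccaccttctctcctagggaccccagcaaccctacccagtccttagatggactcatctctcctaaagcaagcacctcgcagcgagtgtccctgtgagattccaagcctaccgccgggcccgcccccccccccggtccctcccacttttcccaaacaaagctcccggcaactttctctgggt
Vgll3: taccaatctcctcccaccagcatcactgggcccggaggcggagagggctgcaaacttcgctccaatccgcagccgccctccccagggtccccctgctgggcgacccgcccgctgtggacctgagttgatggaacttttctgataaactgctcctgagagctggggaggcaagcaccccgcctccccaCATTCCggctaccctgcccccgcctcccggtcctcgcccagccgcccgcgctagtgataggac
Vgll4: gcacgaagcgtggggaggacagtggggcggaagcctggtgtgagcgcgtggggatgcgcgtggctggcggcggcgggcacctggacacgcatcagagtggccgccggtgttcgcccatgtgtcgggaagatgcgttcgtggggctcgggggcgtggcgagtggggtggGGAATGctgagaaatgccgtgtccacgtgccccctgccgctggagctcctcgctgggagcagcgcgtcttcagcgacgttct

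On either strand, MCAT letters occurred in 5 of the 7 members with an entry (Yap1, Wwtr1, Tead3, Vgll3 and Vgll4), and in 12.6% of 27025 promoters of the same length over all genes. The match began 141 bases before the start site in Yap1, 82 in Vgll4 and 63 in Vgll3. Tead2 and Vgll2 held none in this window. The letters were thus present before members with positive, near-zero and negative ratios alike. The GC box (GGGCGG, both strands) occurred in 7 of 7 members against 32.9% of all promoters, and the CCAAT box (CCAAT, both strands) in 1 of 7, Vgll3, against 34.5%. The AP-1 letters (TGANTCA, the same on both strands) were in 0 of 7, against 6.87%. Where a gene has several start sites, the one listed first was used for these shares. At these sites GC content ran from 57.2% in Tead2 to 76.4% in Yap1, over a median of 52% for all promoters. A match of letters describes these sequences and is no measurement of binding.

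The coactivators were examined first. Yap1 was read by 1 probe on chromosome 9 (7933061 to 7933120, minus strand; all probe positions are on the mm8 build of the files). Its signal above local background in Cy5 was 1245 units in the RNA labelled KO and 749.9 in the RNA labelled WT, and in Cy3 it was 560 and 414. The RNA labelled KO was thus the brighter in both dyes; the signals of a dye come from different arrays and were not scaled to each other. After removal of the dye effect the log2 ratio of labelled KO over labelled WT was 0.26 with the RNA labelled KO in Cy5 and 0.83 with it in Cy3. The mean was 0.54, or 146% of the labelled WT level. The arrays gave this gene the same direction but not the same size. Their SD was 0.403, against 0.147 for probes of the same brightness. Only 0.801% of 14723 genes above background in both RNAs differed as much between the arrays. A probe with no gene name in the files starts 2210 bases away on the same strand (7935271 to 7937079). It was well above background in both RNAs, at 0.01 and 0.02 on the arrays. Whether it reads Yap1 was not tested.

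Wwtr1, the gene of the second coactivator, was nearer 0 than Yap1 on both arrays. Its brighter probe (chromosome 3, 57546558 to 57546617, minus strand) had 4912 and 4444 units in Cy5, and 1911 and 1869 in Cy3, in the RNAs labelled KO and WT. The log2 ratios were -0.02 and 0.12, with a mean of 0.05. A second probe, whose coordinates span 57547017 to 57550484, gave 0.03 and 0.04. Both probes lay within the error of the arrays around 0. The difference between Yap1 and Wwtr1 was 0.49 in the mean, and 0.28 and 0.70 on the single arrays. It was beyond 2 SD of such a difference (SD 0.143) as taken from probes of the same brightness. The arrays of Yap1 differed more than such probes (SD 0.403 against 0.147), so this SD understates the error of the difference. A gene named Taz on the array lies on chromosome X and encodes tafazzin, a mitochondrial enzyme, and is no reading of TAZ.

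**Figure D1:**
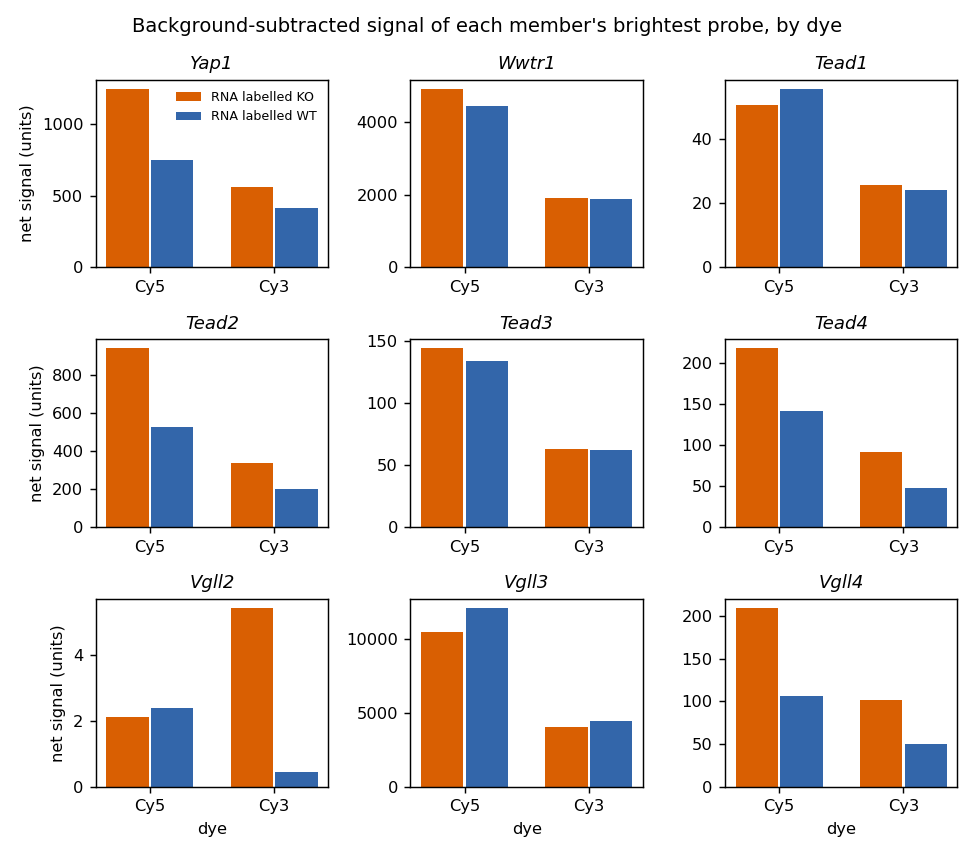
Signal above local background (units, each panel with its own axis from 0) of the brightest probe of each member in Cy5 and in Cy3, with labelled KO in orange and labelled WT in blue; each bar is 1 channel of 1 array. In both dyes orange exceeds blue for Yap1, Tead2, Tead4 and Vgll4, by smaller margins for Wwtr1 and Tead3, blue exceeds orange for Vgll3, and the bars of Vgll2 are at most 5.41 units.

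The TEAD genes encode the DNA-binding partners of the coactivators, and they divided into a pair with higher ratios and a pair near 0. Tead2, the family member known for expression in the early embryo, had the highest mean ratio as processed here. It did not differ from Vgll4 (by 0.03, SD 0.134) beyond the error, and Vgll4 and Tead4 exceeded it with Feature Extraction's own ratio. Its brighter probe (chromosome 7, 45101486 to 45101545, plus strand) had 940.4 units in the RNA labelled KO and 526 in the RNA labelled WT in Cy5, and 336 and 202 in Cy3. The log2 ratios were 0.82 and 0.58, with a mean of 0.70, or 163% of the labelled WT level. A second probe, at 45100284 to 45100343, was at 0.43 on both arrays. The probes agreed in direction, and both means exceeded the SD of a mean at their brightness, 6.98 and 4.41 times.

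Tead4, known for its part in the first lineage decision of the embryo and in muscle, was read by a dim probe (chromosome 6, 128192978 to 128193037, minus strand). It had 218 units in the RNA labelled KO and 141 in the RNA labelled WT in Cy5, and 91.2 and 47.8 in Cy3. The log2 ratios of 0.64 and 0.43 averaged 0.53. The size depended on the processing: with an offset of 10 in place of 50 the mean was 0.73, and the authors' table gave 0.91. In either case the RNA labelled KO was the higher on both arrays.

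Tead1 and Tead3, the remaining DNA-binding partners, were near 0. Tead1 (chromosome 7, 112690667 to 112690726, plus strand) had 50.5 and 55.6 units in Cy5 and 25.6 and 23.9 in Cy3 in the RNAs labelled KO and WT, so the order of the RNAs turned with the dye. Its log2 ratio was 0.01 on both arrays. This probe was one of the dimmest above background, and with the authors' table the mean was 0.27. Probes under another name, 2610024B07Rik, which the RefSeq table gives as a synonym of Tead1, lie 4757 and 6844 bases further along the same strand. Both were brighter than the probe named Tead1, but the choice of members by name left them out. In Cy5 the first had 484 units in the RNA labelled KO and 412 in the RNA labelled WT, and the second 27387 and 24130. They had mean ratios of 0.18 and 0.17, and the single arrays of the second were at 0.35 and -0.00.

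Tead3 (chromosome 17, 28060366 to 28060542, minus strand) had 144 and 134 units in Cy5, and 62.9 and 62.4 in Cy3. Its log2 ratios of 0.04 and 0.11 averaged 0.07, which is 0.832 times the SD of a mean at that brightness. Tead4 exceeded Tead3 by 0.46 and Tead2 exceeded it by 0.63, both beyond 2 SD of such a difference and in the same direction on each array. Tead2 and Tead4 differed by 0.17, and Tead1 and Tead3 by 0.06, both within 2 SD.

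**Figure D2:**
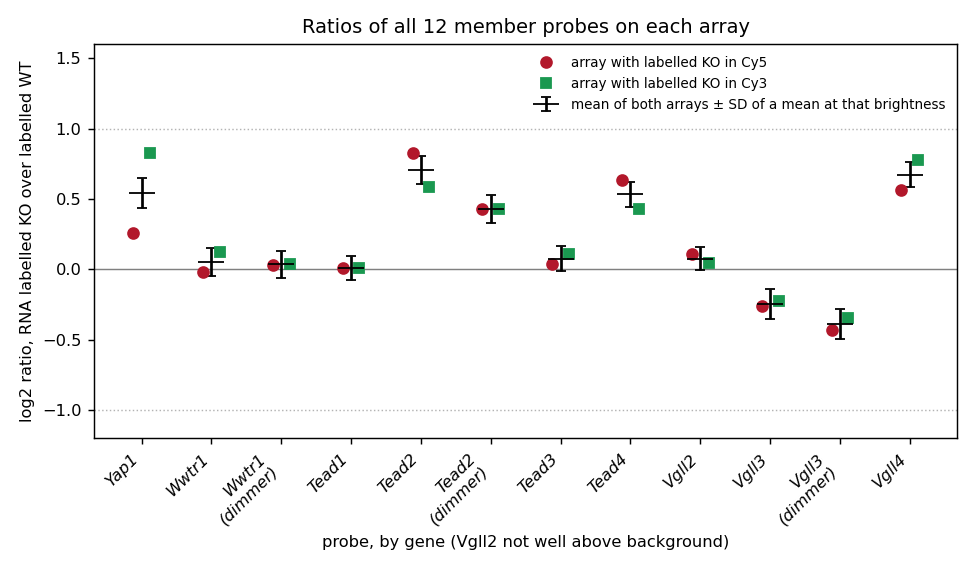
Log2 ratio of the RNA labelled KO over the RNA labelled WT for all 12 member probes, with red circles for the array with the RNA labelled KO in Cy5, green squares for the dye-swapped array, and black bars for the mean of both ± the SD of such a mean among probes of the same brightness. Dotted lines mark 2-fold, which no probe reaches, and the points of Yap1, at 0.26 and 0.83, lie farthest apart.

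The VGLL genes encode cofactors that bind TEADs without YAP or TAZ, and here the genes differed in direction. Vgll4, whose product is known to compete with YAP for TEADs, was read by 1 dim probe (chromosome 6, 114886951 to 114887010, minus strand). It had 209 units in the RNA labelled KO against 106 in the RNA labelled WT in Cy5, and 101 against 49.9 in Cy3. The log2 ratios were 0.56 and 0.78 and averaged 0.67, or 159%. As for Tead4, the size depended on the processing: the mean was 0.92 with an offset of 10, and Feature Extraction's own ratio was 0.97 and 1.39 on the arrays, a mean of 1.18.

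Vgll3, a cofactor known from mesenchymal and muscle cells, was lower in the RNA labelled KO in both dyes and by both of its probes. The probe that stands for the gene (chromosome 16, 65779802 to 65779861, plus strand) had 10447 units in the RNA labelled KO and 12092 in the RNA labelled WT in Cy5, and 4027 and 4461 in Cy3. Its log2 ratios were -0.26 and -0.23, a mean of -0.24, which is 84.4% of the labelled WT level. A second probe, at 65784513 to 65784572, was at -0.43 and -0.34, with a mean of -0.39 or 76.5%. A probe with no gene name in the files, which starts 885 bases before the first on the same strand, was at -0.17 and -0.29. The mean of the standing probe was 2.30 times the SD of a mean at its brightness, a smaller multiple than for Yap1, Tead2, Tead4 or Vgll4.

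Vgll2, known from skeletal muscle, had at most 5.41 units above local background in any channel and was not well above background in either RNA on either array. Its ratios of 0.11 and 0.04 therefore have no order, and no fold is given. Of the 16 skeletal muscle lineage markers, 9 were likewise below that mark in both RNAs, Myf5 and Myog among them. Vgll1, the remaining gene of the family, was at -0.06 and -0.16 on a dim probe.

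Placed in order of the mean ratio, the 8 members above background fell into a higher and a lower group. Tead2, Vgll4, Yap1 and Tead4 followed each other at 0.70, 0.67, 0.54 and 0.53, and no neighbours among them differed beyond 2 SD. These SDs come from probes of the same brightness, and the arrays of Yap1 differed more than such probes. The step from Tead4 to Tead3 was 0.46 with an SD of 0.125 and was the 1 step in the order beyond 2 SD. Tead3, Wwtr1, Tead1 and Vgll3 followed at 0.07, 0.05, 0.01 and -0.24, again with no neighbours apart beyond 2 SD. Vgll3 did differ beyond 2 SD from Tead3 (by 0.32) and from Wwtr1 (by 0.30), which are not its neighbours. The order within the groups depended on the processing. With Feature Extraction's own ratio it began with Vgll4 (1.18), Tead4 (0.91), Tead2 (0.80) and Yap1 (0.58), and Tead1 (0.27) came next. With the RNA labelled KO in Cy5 alone, Yap1 was at 0.26 and lay between the groups. Among the 14723 genes above background in both RNAs, 5% lay below -0.81 and 5% above 0.78. Tead2 stood at percentile 94.0, Vgll4 at 93.4, Yap1 at 90.3 and Tead4 at 90.0, and Vgll3 at 25.3. The median over all 9 members was 0.08, where that over all genes was -0.00. This 0.08 is the ratio of Vgll2, which was not above background, and without Vgll2 the median was 0.30.

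**Figure D3:**
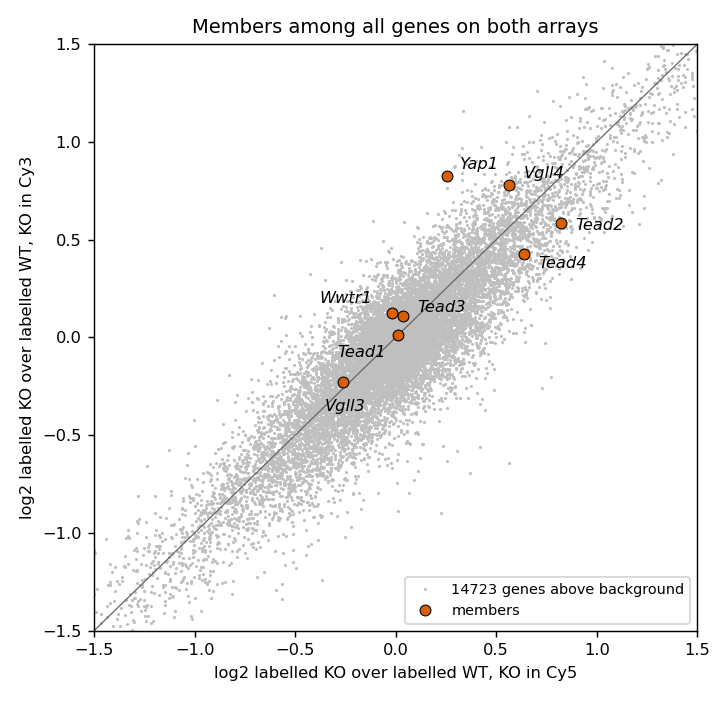
Log2 ratio of the RNA labelled KO over the RNA labelled WT on the array with it in Cy5 (horizontal) and on the dye-swapped array (vertical) for 14723 genes above background in both RNAs (grey; genes beyond 1.5 in size are not drawn) and the 8 such members (orange); the line marks equal ratios. Tead2, Tead4, Vgll4 and Yap1 lie to the upper right within the cloud's outer part, and Yap1 stands farthest from the line.

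A gene was called when it was at least 2-fold higher or lower on each array and well above background in the RNA it was higher in. By this rule 0 of the 9 members were called in either direction. Over the 15877 genes well above background on both arrays in either or both RNAs, the share was 5.56% (2.95% higher and 2.61% lower). Of the 9 members, 8 were among these genes. At 1.5-fold on each array 0 of 9 were called, against 14.2%. Tead2 missed that mark on the array with the RNA labelled KO in Cy3 (0.58) and Vgll4 on the array with it in Cy5 (0.56), both by little. With Feature Extraction's own ratio Tead2, Tead4 and Vgll4 passed 1.5-fold, against 23.3% of genes, and with a smaller normexp offset of 10 the same 3 genes passed, against 18.2%. These settings were added after the data had been seen. The ratios on which the text turns thus lay between 1.45-fold and 1.63-fold, and for the dim probes of Tead4 and Vgll4 they were larger with the smaller offset.

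**Figure D4:**
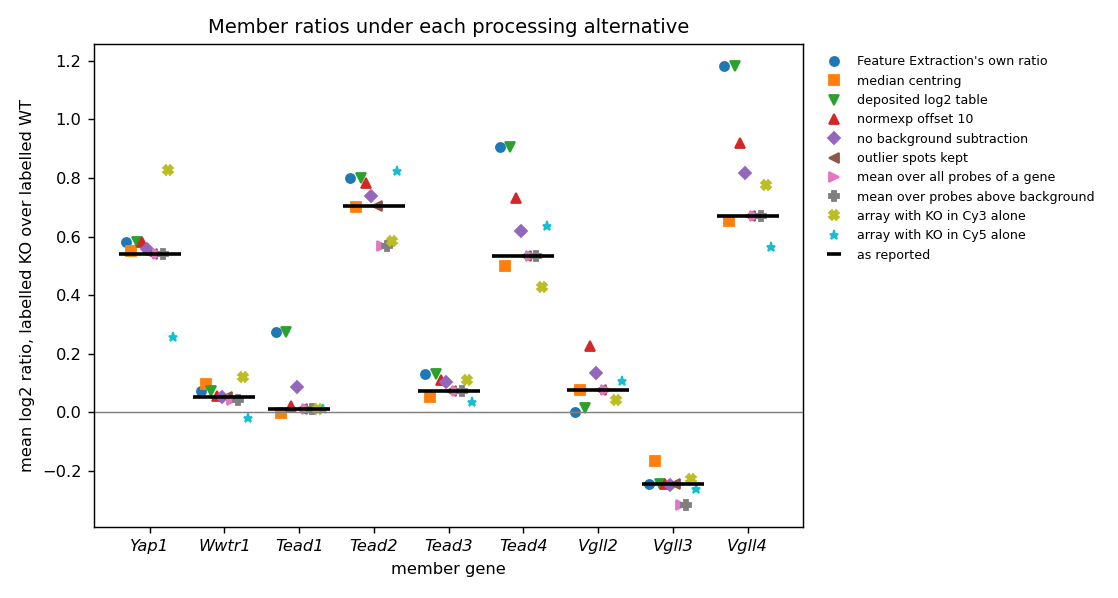
Mean log2 ratio of the RNA labelled KO over the RNA labelled WT of each member under up to 10 processing alternatives (coloured symbols) beside the value as reported (black bar). Tead4 and Vgll4 reach 0.91 and 1.18 with Feature Extraction's ratio or the deposited table, Yap1 spans 0.26 to 0.83 between the single arrays, and symbols fall on both sides of 0 for Wwtr1 and Tead1.

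The genes around the family were described from lists. Of 58 measured genes upstream in the Hippo pathway, 3 were called higher and 1 lower in the RNA labelled KO. Of the 58, 55 were among the 15877 genes above background in either or both RNAs, of which 2.95% and 2.61% were called. The list median was 0.14. Rassf6, a scaffold that binds the MST kinases, was at 2.21. The angiomotins Amot (1.20) and Amotl2 (1.14) bind YAP and hold it at junctions. Stk38l, a kinase related to the LATS kinases, was at -1.42, and Rassf2 was the lowest of the genes not called, at -0.85. The probes of Amot disagreed, the lowest of 3 being at 0.03, and so did the 2 of Rassf2, the higher being at -0.11.

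Of 40 transcription factors and coactivators listed as binding YAP, TAZ or TEADs or acting beside them, 1 was called higher and 3 lower. Of the 40, 37 were among the 15877 genes, of which 2.95% and 2.61% were called. The list median was -0.02. Pparg, the adipocyte regulator that TAZ restrains, was at 2.83. The AP-1 subunit Fos was at -3.73, Tcf4 at -1.60 and the muscle factor Mef2c at -1.35. Tcf4 here is the gene of that symbol on chromosome 18. It was listed by its symbol only, and whether its product acts beside YAP, TAZ or TEADs was not tested. Smad7, an inhibitor of TGF-beta signalling, averaged 1.06 but reached 2-fold on 1 array only. A second probe of Mef2c was at -0.02 and the highest of 3 for Tcf4 at -0.21, so neither gene was lower by every probe.

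Of 31 genes known as targets of YAP, TAZ and TEADs, 7 were called higher and 1 lower, with a median of 0.43. Of the 31, 29 were among the 15877 genes, of which 2.95% and 2.61% were called. With median centring in place of loess the counts were 2 and 0. Values of this list were known from earlier work on the same arrays, so it is no independent support for a direction. The target list includes the targeted gene Lats2 itself, at 0.56. Lats2, Amotl2, Ajuba and Ptpn14 were also counted in the upstream list. Ankrd1, a muscle and stress protein, was at 3.54, and F3, the coagulation starter tissue factor, at 2.58. Crim1 (1.30), Igfbp3 (1.26), Thbs1 (1.26), Tgfb2 (1.24) and Amotl2 (1.14) completed the higher ones. Cdc20, a mitotic regulator, was at -1.11, and Birc5, an inhibitor of apoptosis, at -0.56 was not called. The probes of Igfbp3 disagreed, the lowest of 3 being at 0.07.

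**Figure D5:**
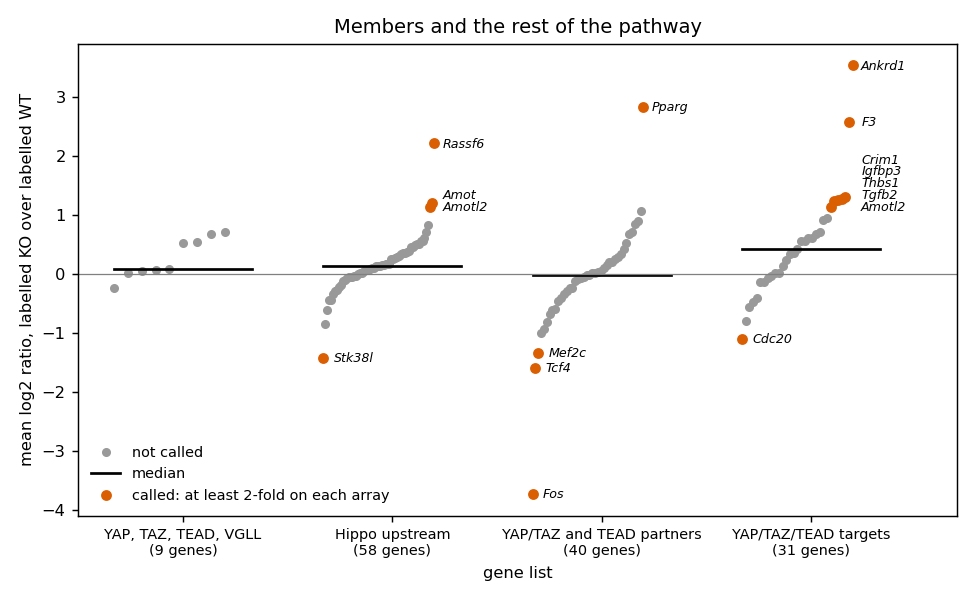
Mean log2 ratio of the RNA labelled KO over the RNA labelled WT for the 9 members and for 58 upstream genes, 40 partners and 31 targets, ordered by value within each list; orange points are called (at least 2-fold on each array), grey points are not, and black lines are medians. No member is called, and the target list has the highest median, 0.43.

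Markers of other cell types were read beside these values. Among the smooth muscle markers 1 of 6 was called, Cnn1 at -2.11, and the list median was -0.50. The brightest Acta2 probe was at 0.79, while its 3 probes ran from -0.64 to 0.93. Of the 13 fibroblast markers 12 were measured and 0 were called, with a median of -0.43. The list was led downward by Fbn1 at -1.19 (-0.72 and -1.66 on the arrays), and Fn1 was at 0.89 (its 4 probes from 0.27 to 0.99). Single markers of other types were called: the epithelial keratin Krt19 at 2.12, the myelin gene Mbp at 2.29 (the lowest of its 3 probes at -0.06), and from the macrophage list the lysozyme gene Lyz2 (1.11 with labelled KO in Cy5, a dimmer probe at 0.13) and Cd14 at -1.05. Of the epithelial list 3 of 9 genes were above background in both RNAs, of the neural list 6 of 10, of the macrophage and blood list 5 of 10, and of the cartilage and bone list 3 of 8 with 0 called. The summed signal of the fibroblast list in Cy5 was 252980 units in the RNA labelled KO and 295363 in the RNA labelled WT, and in Cy3 86171 and 95390. The part of these differences in the ratios of the members was not tested.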

How the data were processed

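Per the file headers, the authors read both scans with Agilent Feature Extraction 10.5.1.1 and deposited, for each spot, intensities (mean signal and local background) and a log10 ratio of Cy5 over Cy3. A table of log2 ratios was deposited too. For 40929 probes spotted once it equalled, within 0.001, the log2 ratio of labelled KO over labelled WT of the processed signals on both arrays.

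Background was corrected by normexp with an offset of 50, and each array was normalised by loess, in limma 3.58.1 (R 4.3.3). Outlier-flagged and control spots were left out. Spots of a probe were averaged, the dye-swapped array was turned, and the brightest probe stood for its gene. The offset draws the ratios of dim probes towards 0. Well above background is Feature Extraction's flag. Calling was tested on simulated data with known changes. Accessions of 10 of the 12 member probes matched the RefSeq table, each under the same symbol; the 2 Vgll3 probes did not match. Promoters came from RefSeq (GRCm38.p6), and no probe was placed in an exon or intron here.

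The text names every member with all its probes and the Lats genes. From each list it names the genes called, and otherwise the 2 highest and the 2 lowest among those above background in both RNAs where they add to the text; genes named outside this rule were chosen after their values were seen. A gene of the target list is not reported here and was left out of its counts. Members and lists were chosen with earlier results of these data known. Alternatives were Feature Extraction's own ratio, the deposited table, median centring, offset 10, no background subtraction, outlier spots kept, means over probes, each array alone, other call rules and no filter on dim probes.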

Additional observations from a re-analysis of the deposited data

How the results depend on the processing

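Of 224 values recomputed under alternatives, 180 stayed within 1 SD between the arrays or, for counts, within 1.5 times the reported count, and 44 moved. Among the 89 of single members 77 kept theirs, 11 moved to a larger size and 1 to a smaller, and 3 values near 0 (of Wwtr1, Tead1 and Vgll2) took the opposite sign or 0. No member was called at 2-fold under any alternative run. The count at 1.5-fold is the less stable one: 0 members as reported, and 3 higher with Feature Extraction's own ratio or with offset 10. The number of arrays and the dim probes of Tead1, Tead4 and Vgll4 limit the precision.

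With Feature Extraction's own ratio, and equally with the deposited table, Tead1 was at 0.27, Tead4 at 0.91, Vgll4 at 1.18 and the median of the members at 0.27. The first setting called 1280 probes higher and 1220 lower, and the second 1284 and 1224, where 599 and 503 were reported; both called 941 genes higher and 866 lower, where 469 and 414 were reported. In the lists, Feature Extraction's ratio called 2 upstream genes lower, 2 partners higher and 5 lower, and 2 targets lower. With offset 10, Tead4 was at 0.73, Vgll2 at 0.23, Vgll4 at 0.92 and the median at 0.23, and without background subtraction Vgll4 was at 0.82. With the mean over probes above background, which leaves out Vgll2, the median of the members was 0.30. Median centring, which leaves the intensity-dependent dye effect in each array, called 321 probes higher and 169 lower, 250 genes higher and 138 lower, 1 upstream gene higher and 0 lower, 1 partner lower, and 2 targets higher and 0 lower.

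On the single arrays Yap1 ranged from 0.26 (labelled KO in Cy5 alone) to 0.83 (labelled KO in Cy3 alone), and 1 to 2 partners were called higher. The calls at 1.5-fold were 1480 probes higher and 1515 lower. The methods' t-test at their threshold called 524 probes higher and 443 lower, and 0 in each direction after Benjamini-Hochberg adjustment; limma called 662 and 598. In limma on both arrays, adjusted over all probes, p was 4.39e-08 for Tead2, 1.11e-07 for Vgll4, 8.60e-06 for Tead4, 3.29e-05 for Yap1 and 0.035 for Vgll3, and at least 0.684 for the rest. These p-values compare the RNAs hybridised, not the genotypes. The cause of these movements was not tested. No paired analysis was possible because both arrays form 1 group and 1 replicate.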
